A study of Arabidopsis thaliana with 6 samples.

Results

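The 4 Arabidopsis genes described here encode proteins whose relatives in yeast or animals work at the edge of the 26S proteasome. They were followed in whole seedlings in which a form of the transcription factor RPX was switched on. They are ECM29 (AT2G26780), PTRE1 (AT3G53970), the gene AT3G04780 for a protein with a PITH domain, and the gene AT3G18860 for a WD40 protein related to animal PLAA. The 4 genes were taken from 13355 named genes on the array, each by the 1 probe set listed for it alone. They were picked with their difference between estradiol and mock already known, so that difference is given below as a description, without a test.

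The 26S proteasome degrades proteins tagged with ubiquitin. It consists of a 20S core, where proteins are cut, and 19S particles, which recognise, unfold and feed them in. Other proteins bind to it without being subunits, and the AAA-type ATPase CDC48 (p97 in animals), together with cofactors such as UFD1, NPL4 and proteins with a UBX domain, pulls ubiquitylated proteins out of membranes and complexes and hands them on. The 4 genes are placed in this surrounding layer, mostly through their relatives in yeast and animals. ECM29 in yeast is a large repeat protein that holds core and regulatory particle together. PTRE1 is the Arabidopsis relative of animal PI31, a protein that binds the 20S core. In animals the PITH domain is found in the thioredoxin-like protein TXNL1, which binds the proteasome. PLAA, called Doa1 or Ufd3 in yeast, is a CDC48 partner that binds ubiquitin.

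The seedlings were Col-0 transformants of the T3 generation, 14 days old, grown in 16 h of light and 8 h of dark. All of them carried the constitutively expressed chimeric factor XVE and the coding sequence of RPXΔC behind a LexA promoter, so that estradiol, by sending XVE to the nucleus, induces RPXΔC. The estradiol group (3 arrays) had 10 µM estradiol for 2 h; the mock group (3 arrays) carried the same construct and was given ethanol according to one label and medium without inducer according to another. No seedlings without the transgene are among the samples, so effects of the inducer and of RPXΔC cannot be told apart, and the labels do not say how many independent lines were used. In RNA from whole seedlings, a change in the number of cells of a type and a change in RNA per cell cannot be told apart either.

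Each value is the deposited signal of a probe set, an intensity on a linear scale after the authors had scaled the arrays to a common mean. Array medians lay between 35.7 and 38.7. Estradiol replicate 3 had an actin 3'/5' signal ratio of 15.2, against 4.37 to 6.11 on the other arrays, and mock replicates 1 and 2 had a 25S rRNA control signal of 302 and 286, against 918 to 1534 on the others. A gene is called measured here if a probe set is listed for it alone. The 3 measured of 8 shoot markers had a summed signal of 5066 to 6060 in mock and 4870 to 5523 with estradiol. The 3 measured of 4 root markers had 2504 to 2685 in mock and 1682 to 2612 with estradiol. Nearly all of the root sum came from AT3G09260, since AT1G12560 and AT1G62980 had mock means of 36.9 and 27.2. The ratios of the estradiol to the mock mean of these root markers were 0.843, 0.905 and 0.739. Those of the shoot markers AT5G01530, AT3G08940 and AT2G40100 were 1.04, 0.904 and 0.797. Signal of both tissues was thus present in both groups, for root mainly through 1 gene. The part of these differences between arrays in the values below was not tested beyond leaving arrays out.

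All 4 genes had higher signals on the estradiol arrays. The means differed 2.14-fold for AT3G18860, 2.08-fold for AT3G04780, 1.83-fold for ECM29 and 1.49-fold for PTRE1. In each of the 4 the lowest estradiol array lay above the highest mock array, as in 5.79% of all 22746 probe sets tested, while in 7.74% all estradiol arrays lay below; since the genes were picked on this comparison, nothing is read from that count.

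ECM29 gave signals of 76.8, 132 and 137 on mock replicates 1, 2 and 3, against 248, 202 and 182 after estradiol. Mock replicate 1 was the low array, and estradiol replicate 3, the array with the high actin ratio, was the lowest of its group; even so it was 1.33 times the highest mock value. The group means were 115 ± 33.2 and 211 ± 33.8 (SD, n = 3 each). On the scale of log2(signal + 16), which understates the change of dim probe sets, estradiol minus mock was 0.81 ± 0.217 (SE of the fit in limma, a linear model over all probe sets). When each array was left out in turn, this log2 difference of ECM29 ranged from 0.58 without mock replicate 1 to 0.94 without mock replicate 3.

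PTRE1, whose loss in Arabidopsis is known to lower proteasome activity, had the smallest difference of the 4. Its mock signals were 80.6, 122 and 75.5, and its estradiol signals were 147, 142 and 126. Mock replicate 2 stood high, and estradiol replicate 3, the array with the high actin ratio, was again the lowest of its group. The lowest estradiol value was 1.03 times the highest mock value. Means were 92.8 ± 25.6 in mock and 138 ± 10.9 with estradiol (SD, n = 3 each), a log2 difference of 0.53 ± 0.172 (SE). Without mock replicate 2 the difference of PTRE1 was 0.71, and without mock replicate 3 it was 0.41.

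AT3G04780 encodes a protein made up mainly of a PITH domain, the fold that TXNL1 carries next to its thioredoxin domain. It was the most even of the 4 genes. Its signals were 150, 166 and 151 in mock against 337, 322 and 312 with estradiol, so the lowest estradiol array reached 1.88 times the highest mock array. The means of 156 ± 8.85 and 324 ± 12.8 (SD, n = 3 each) gave a log2 difference of 0.98 ± 0.0951 (SE). Leaving out single arrays kept it at 0.95 to 1.02.

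A second PITH-domain gene, AT2G25950, did not share these values. It gave 108, 159 and 96.0 in mock and 105, 115 and 95.8 with estradiol, and the groups overlapped. Its log2 difference was -0.15 ± 0.179 (SE, limma adjusted p = 0.857 over all probe sets) and did not pass the threshold of an adjusted p under 0.05. The difference between both PITH-domain genes was not tested, because AT3G04780 had been picked on this comparison.

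AT3G18860 is the Arabidopsis gene for the PLAA-like protein, in which WD40 repeats are followed by domains that in yeast Doa1 bind ubiquitin and CDC48. Mock replicates 1 to 3 read 173, 215 and 198, whereas the estradiol replicates read 449, 382 and 421. The groups were well separated, with the lowest estradiol value 1.78 times the highest mock value. Unlike in the other members, estradiol replicate 3 was not the lowest of its group here. Means were 195 ± 20.8 and 417 ± 33.8 (SD, n = 3 each), a log2 difference of 1.04 ± 0.118 (SE) that ranged from 0.96 to 1.10 as arrays were left out singly.

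**Figure D1:**
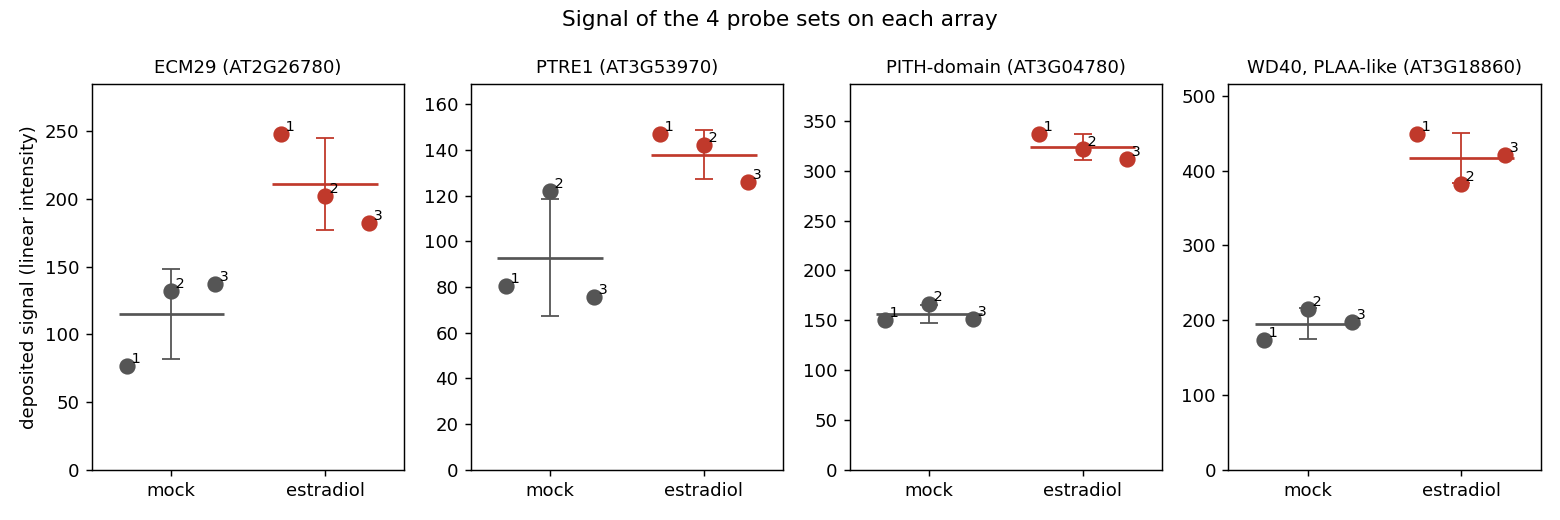
Deposited signal (linear intensity) of the 4 probe sets on each of the 6 arrays; points are arrays with their replicate number, horizontal lines are group means and bars are ± SD (n = 3). The estradiol points lie above the mock points in every panel, with the narrowest gap in PTRE1, where the lowest estradiol value is 1.03 times the highest mock value.

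The 4 genes differed in how far replicates scattered. The pooled SD within groups, in log2 units, was 0.0645 for AT3G04780 and 0.13 for AT3G18860, and 0.24 for PTRE1 and 0.321 for ECM29. The median over the 8606 probe sets with a mean signal of 50 to 500, the range that holds all 4, was 0.189. ECM29 and PTRE1 thus scattered more than the typical probe set of that brightness and AT3G04780 and AT3G18860 less. The scatter of ECM29 and PTRE1 was wider in mock: the highest mock value was 1.78 times the lowest for ECM29 and 1.62 times for PTRE1, against 1.36 and 1.16 times within estradiol.

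The arrays that set this scatter were not the same in both genes. After each gene was centred on its own mean of log2(signal + 16), ECM29 was at -0.87 on mock replicate 1 and at -0.20 and -0.15 on mock replicates 2 and 3, whereas PTRE1 was at 0.11 on mock replicate 2 and at -0.41 and -0.49 on mock replicates 1 and 3. AT3G04780 and AT3G18860 followed each other most closely among the 6 pairs of members. The root mean square difference of their centred profiles over the 6 arrays was 0.0836 log2 units, against 0.22 to 0.304 for the other 5 pairs.

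Among the 13351 other named genes, the ones most like the mean profile of the 4 by the same measure included 2 proteasome subunits. The nearest 5 were AT5G44990 (root mean square difference 0.0768), PAB2 (AT1G79210, 0.0845), AT2G44010 (0.107), RPN12A (AT1G64520, 0.108) and AT5G07800 (0.11). PAB2, an alpha subunit of the 20S core, read 186, 262 and 226 in mock against 432, 465 and 404 with estradiol. RPN12A, a subunit of the 19S lid, read 407, 504 and 393 in mock against 933, 882 and 739 with estradiol. Both had estradiol arrays entirely above the mock arrays. The search was for likeness to members picked on this comparison, so it favours separate groups and a positive difference. Nothing is read from either in the genes it returned. AT5G44990 is dim, with group means of 2.29 and 16.5, so its profile on this scale is shaped by the pseudocount of 16. AT5G07800, with a mock mean of 14.8, also lay below the pseudocount in mock. The log2 differences of these 5 lay between 0.63 and 0.95, and none passed the threshold (limma adjusted p from 0.111 to 0.22).

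The nearest genes were also sought for each member by itself. The nearest to AT3G04780 and also to AT3G18860 was PBAC2 (AT3G18940), a chaperone that helps to assemble the 20S core, at root mean square differences of 0.0851 and 0.12. PBAC2 gave 142, 152 and 133 in mock and 276, 265 and 299 with estradiol, with no overlap, which this search favours as well. Next came RPT4B (AT1G45000, one of the 19S ATPases) for AT3G04780, at 0.0866, and HMT-1 (AT3G25900, a homocysteine S-methyltransferase) for AT3G18860, at 0.121. RPT4B gave 464, 446 and 409 in mock and 906, 982 and 890 with estradiol. For the other members the nearest genes were AT5G46780 (0.144) and AT2G44010 (0.147) for ECM29, and AT1G20870 (0.0863) and AT1G27820 (0.0867) for PTRE1. AT1G20870 and AT1G27820 had mock means of 13.7 and 4.77, below the pseudocount. The measure covers 6 arrays in 2 groups and says only that the signals moved alike.

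**Figure D2:**
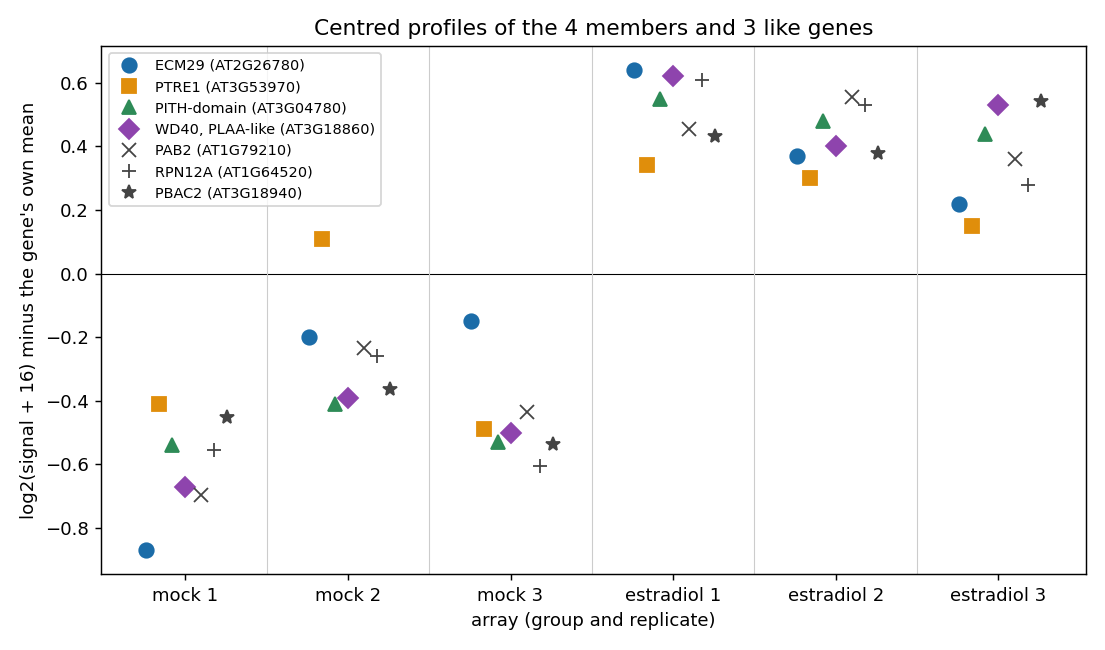
Value of log2(signal + 16) minus the gene's own mean over the 6 arrays, for the 4 members and for PAB2, RPN12A and PBAC2; each column is 1 array and points are spread sideways for legibility. AT3G04780 and AT3G18860 lie close together on every array, while ECM29 is low on mock replicate 1 (-0.87) and PTRE1 is above its own mean on mock replicate 2 (0.11).

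The surrounding pathway was read from 4 lists of other genes, with limma's test over all probe sets. These lists were chosen with earlier results of these data known. The medians, counts and p-values of list genes below therefore describe them and are no independent support. Over the whole array 26 of 22746 probe sets, or 0.114%, were called higher after estradiol and 0 (0%) lower, a call being an adjusted p under 0.05 (Benjamini-Hochberg); before adjustment 900 were higher and 1042 lower at p under 0.05. Of 104 listed genes 25 have a probe set listed for them alone, and 5 of these were called higher and 0 lower. The array may hold probe sets for the other listed genes, since 8730 probe sets have no gene listed and 503 have several. The medians below cover only the genes that could be assigned. The 5 were all subunits or assembly chaperones. No list gene (0) was called once mock replicate 1, 2 or 3 or estradiol replicate 1 or 2 had been dropped from the fit, and 4 were called once estradiol replicate 3 had been. The probe sets called higher over the whole array numbered 0 to 2 in the former fits and 57 in the latter.

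Subunits of the 26S proteasome had a median log2 difference of 0.91 over 9 measured of 56 listed genes, against -0.03 over all probe sets. RPN2B (AT1G04810), a scaffold of the 19S base, and RPT4B rose, by 1.36 ± 0.14 and 1.05 ± 0.1 (log2 difference ± SE, limma adjusted p = 0.0458 and 0.045). In 7 of the 9 genes the estradiol arrays lay entirely above the mock arrays, against 5.79% of all probe sets, and in 0 entirely below, against 7.74%. Since the list was chosen with earlier results of these data known, nothing is read from this count. The log2 differences of all 4 members, from 0.53 for PTRE1 to 1.04 for AT3G18860, lay within the wide range of these subunits, -0.20 to 1.53.

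Assembly chaperones, which help to build the particles and then leave, had a median of 0.81 over 7 measured of 8 listed genes. NAS6 (AT2G03430), UMP1A (AT1G67250) and PBAC2 rose, by 1.77, 1.47 and 0.90 (limma adjusted p = 0.0458, 0.0273 and 0.0493). The other 4 ran from 0.00 to 0.81 and did not pass, so the list divided into genes near 0 and genes well above it. None of the 14 listed proteasome-associated genes, which include the RAD23 and DSK2 shuttle proteins, the deubiquitinase UBP6 and the activator PA200, has a probe set listed for it alone, so ECM29 and PTRE1 could not be set beside them.

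CDC48 is a partner of PLAA in animals and of Doa1 in yeast. CDC48 and its cofactors had a median log2 difference of 0.07 over 9 measured of 26 listed genes, close to the -0.03 of all probe sets. In limma 0 of the 9 passed after adjustment. Over all probe sets 0.114% were called higher and 0% lower, so 0 of 9 says little. At an unadjusted p under 0.05, 3 of the 9 were higher and 0 lower, against 900 and 1042 of all 22746 probe sets. No gene for a CDC48 ATPase itself has a probe set listed for it alone, so none could be described here. The largest value was that of AT4G15420, which encodes a protein of the UFD1 family, the subunit that together with NPL4 brings ubiquitylated proteins to CDC48. It gave 217, 191 and 110 in mock and 374, 529 and 314 with estradiol. The groups did not overlap but spread widely, and the log2 difference of 1.18 ± 0.277 (SE) did not pass (limma adjusted p = 0.311).

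The UBX-domain genes, whose products dock on CDC48, were not alike. AT4G23040 gave 42.4, 45.7 and 31.4 in mock and 89.5, 73.0 and 59.1 with estradiol, with no overlap (log2 difference 0.68 ± 0.164 SE, limma adjusted p = 0.322). SAY1 (AT4G11740) gave 117, 135 and 88.3 in mock and 194, 221 and 126 with estradiol. Its estradiol replicate 3 lay below mock replicate 2, and its difference of 0.59 ± 0.225 (SE) did not pass either (adjusted p = 0.555). AT4G10790, with 121, 194 and 157 in mock and 184, 113 and 170 with estradiol, had a difference of -0.02. AT2G43210 had 0.06, from a probe set that by its suffix may also detect a related transcript.

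The remaining cofactors lay near 0. The UFD1-family genes AT4G38930 and AT2G29070 had log2 differences of -0.05 and 0.07. The NPL4 gene AT2G47970 gave 175, 160 and 161 in mock and 171, 145 and 175 with estradiol, a difference of -0.01, and AT3G54130, which encodes a Josephin-domain deubiquitinase related to ataxin-3, had 0.08. The groups overlapped in each of these 4 genes. Like AT3G18860, the cofactor genes AT4G15420 (1.18), AT4G23040 (0.68) and SAY1 (0.59) had higher means after estradiol, though none of these cofactors passed. The measured NPL4 gene, 2 of 3 measured UFD1-family genes, AT4G10790, AT2G43210 and AT3G54130 differed by less than their spread. The difference between AT3G18860 and the cofactor genes was not tested.

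**Figure D3:**
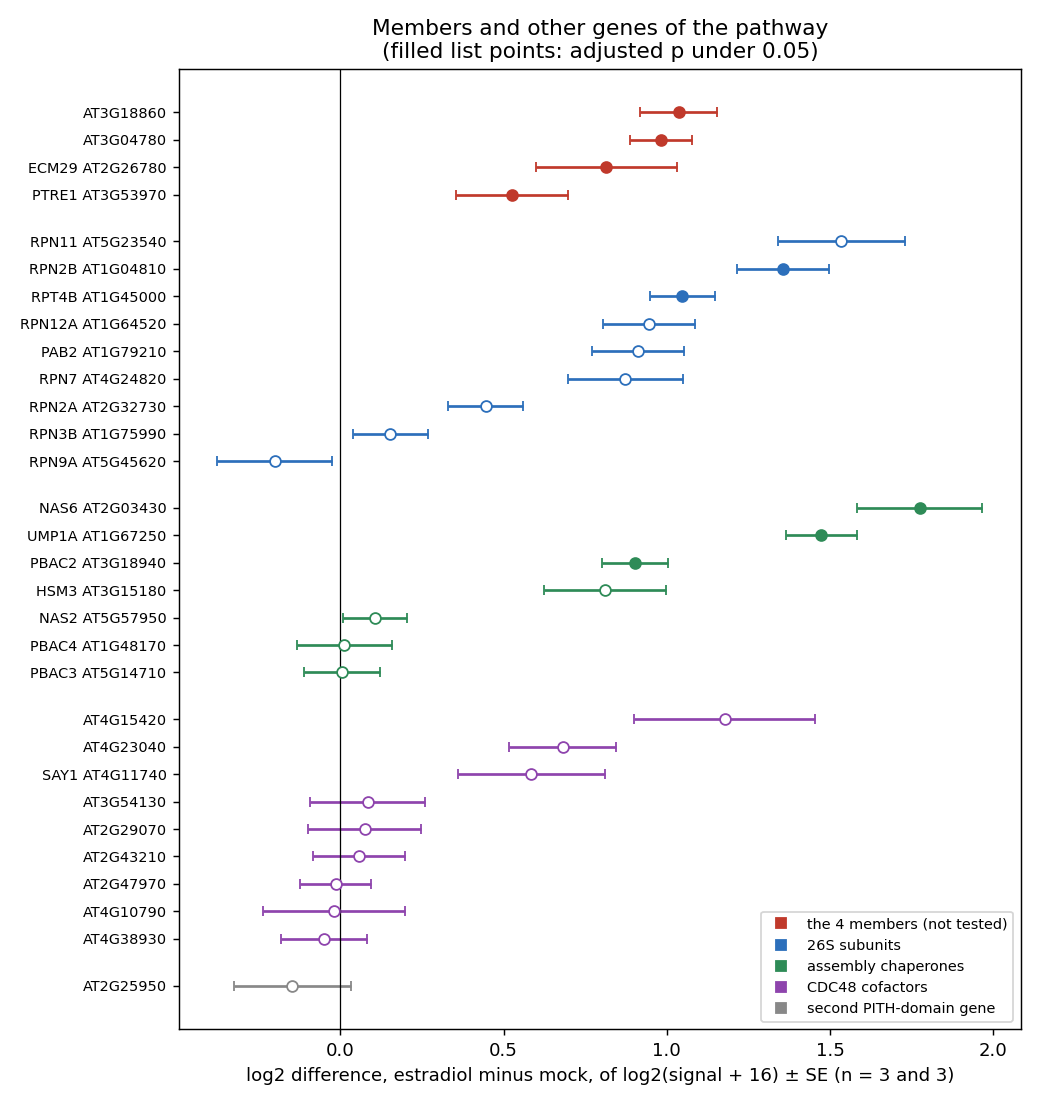
Log2 difference of log2(signal + 16), estradiol minus mock, with the SE of the fit (n = 3 and 3 arrays) for the 4 members and for the measured genes of each list; filled list points passed an adjusted p under 0.05 and the members were not tested. Members lie between 0.53 and 1.04, and among the CDC48 cofactors AT4G15420, AT4G23040 and SAY1 lie apart from 6 genes near 0.

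The size of the differences depended on the setting more in ECM29 and PTRE1 than in the other members. The 15 alternatives changed the pairing, scaling, pseudocount, filter, weights or arrays used; since the groups of all 4 genes are separate and the genes were picked on this comparison, the sign could hardly turn and is no sign of stability. The log2 difference ranged from 0.56 to 1.04 for ECM29, from 0.38 to 0.75 for PTRE1, from 0.82 to 1.05 for AT3G04780 and from 0.89 to 1.10 for AT3G18860. Because mock replicates 1 and 2 had the low rRNA signal, the estradiol arrays were also set against mock replicate 3 alone: the difference was then 0.56 for ECM29, 0.75 for PTRE1, 1.02 for AT3G04780 and 1.01 for AT3G18860. Without replicate 3 of both groups, which removes the array with the high actin ratio, it was 1.04, 0.47, 0.99 and 1.04. ECM29 and PTRE1 moved in opposite directions between these choices of arrays, which differ in both the mock and the estradiol arrays. AT3G04780 and AT3G18860 moved less than either.

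**Figure D4:**
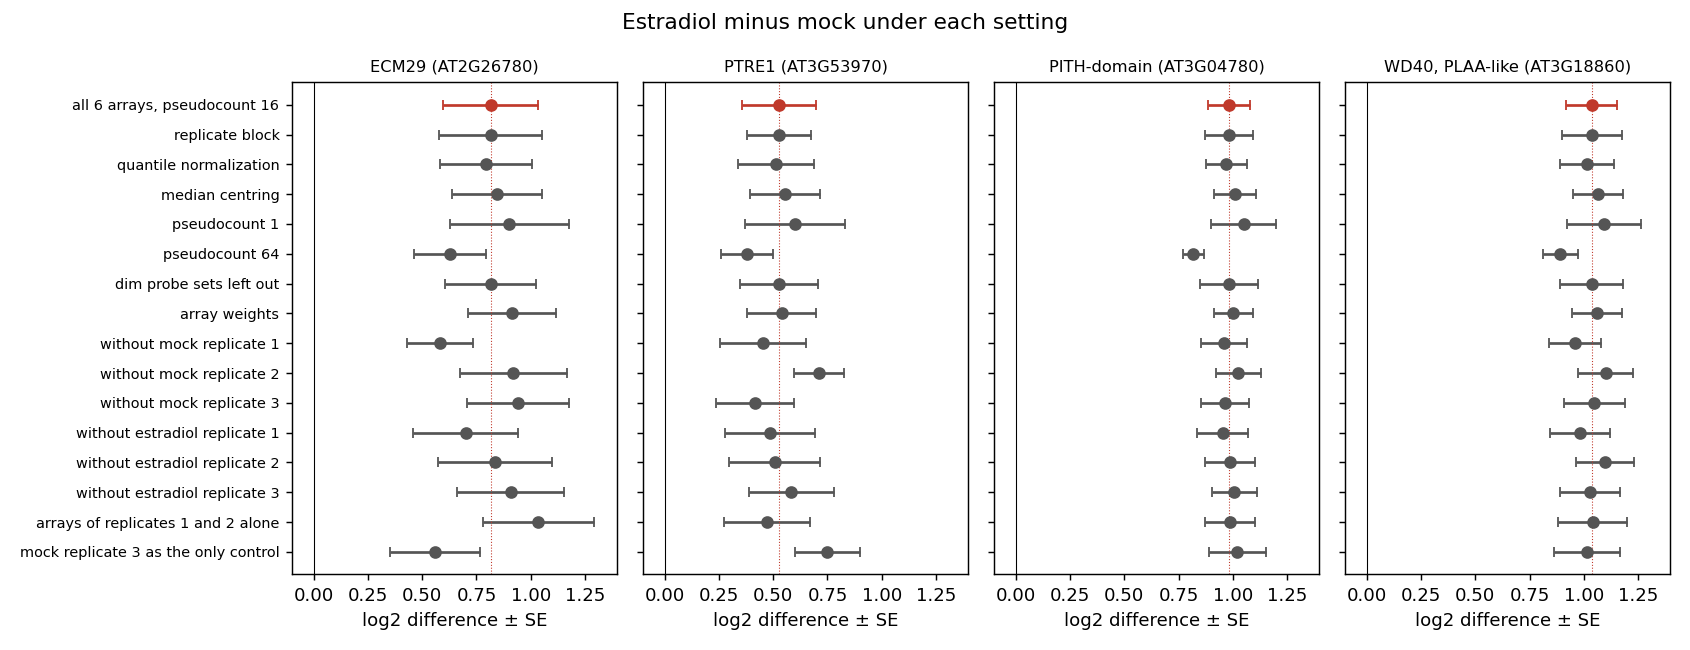
Log2 difference (estradiol minus mock) ± SE of the fit for each member on all 6 arrays (red) and under each of the 15 alternatives (grey). The points of ECM29 and PTRE1 move further with the mock arrays used than those of AT3G04780 and AT3G18860.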

How the data were processed

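For every probe set on every array the deposited table holds 1 linear intensity, scaled by the authors to a common mean (2% trimmed mean 100.0 on each array). GCOS and affy appear, without version, in the submitters' processing notes; probes were summarised by a method not given in the sources used here. No detection calls were used. Of 22810 probe sets, 64 controls were left out; 13513 of the 22746 others have 1 gene in the platform annotation, 503 several and 8730 none. Names were updated to TAIR10.1 through Entrez IDs, and a gene's brightest probe set stood for it. No coordinates are given, since no build is named for the array.

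Values were taken as log2(intensity + 16) and fitted by limma 3.58.1 under R 4.3.3 (group alone in lmFit, then eBayes, two-sided, Benjamini-Hochberg over all 22746), after tests on simulated data. With 3 against 3 arrays an exact permutation test cannot go below 0.1, so p-values rest on limma's pooled spread. The labels call the samples biological replicates. Members and lists were chosen with earlier results of these data known. Named were the 4 members, list genes past the threshold (at most 4 a list, or else the 2 with the smallest p), every measured CDC48 cofactor, the relatives, and the nearest 5 genes to the mean profile and 2 to each member. A search of RefSeq symbols for further cofactors added 0 genes. Alternatives changed pairing, scaling, pseudocount, filter, weights and arrays. Figures were drawn with matplotlib 3.10.9.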

Additional observations from a re-analysis of the deposited data

How the results depend on the processing

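The log2 differences of ECM29 and PTRE1 moved by less than 1 SD between replicates under all 15 alternatives. Those of AT3G04780 and AT3G18860 moved by more than their own SD with the pseudocount, which enters each value directly. AT3G04780 had 1.05 with a pseudocount of 1 and 0.82 with 64, and AT3G18860 had 0.89 with 64. This reflects their smaller SDs, 0.0645 and 0.13 against 0.321 for ECM29 and 0.24 for PTRE1. With a pseudocount of 64 ECM29 moved most of the 4 members in log2 units, from 0.815 to 0.628, and PTRE1 went from 0.526 to 0.378. ECM29 moved further, to 0.56, with mock replicate 3 as the only control. When each array was left out, the differences ranged from 0.58 to 0.94 for ECM29, 0.41 to 0.71 for PTRE1, 0.95 to 1.02 for AT3G04780 and 0.96 to 1.10 for AT3G18860. Calls depended much more on the setting. Against 26 probe sets called higher, there were 43 with median centring, 0 with a pseudocount of 1, 11 with 64, 96 when dim probe sets up to the 25th percentile were left out (fewer are then tested) and 91 with array weights; 1 was called lower under each of the last 2. Leaving out each array gave 0 to 57 higher. Against 5 list genes called higher, there were 0 with a pseudocount of 1, 3 with 64, 8 without dim probe sets and 0 to 4 when each array was left out. Both settings added after the data were seen, without replicate 3 of both groups and with mock replicate 3 as the only control, gave 0 calls of either kind; the latter leaves 1 mock array, assumed to vary like the estradiol arrays, so few calls could be made and the 0 says little. Apart from the stated construction, the cause was not tested.

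With the replicate number as a block, 17 probe sets and 3 list genes were called higher, and the differences of the members did not move. The numbers were not taken to pair the arrays: deviations from the group means of same-numbered arrays correlated at 0.091, 0.113 and 0.329, the first of them not over 0.1, and 2 of 6 arrays correlated best with their own number.

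The list genes named next changed sign under some setting. With median centring AT2G47970 had 0.014 and AT4G10790 0.01. With array weights AT4G10790 had 0.02 and AT2G43210 -0.007. Without replicate 3 of both groups PBAC4 (AT1G48170) had -0.039, AT2G29070 -0.024 and AT2G43210 -0.125. Against mock replicate 3 alone RPN9A (AT5G45620) had 0.006, AT1G48170 -0.10, AT4G38930 0.105, AT2G47970 0.016 and AT2G25950 0.114. When each array was left out, the ranges were -0.06 to 0.061 for AT2G47970, -0.178 to 0.173 for AT4G10790, -0.046 to 0.148 for AT2G43210, -0.095 to 0.146 for AT1G48170, -0.127 to 0.073 for AT4G38930, -0.049 to 0.261 for AT2G29070, -0.057 to 0.216 for AT3G54130, -0.28 to 0.042 for AT2G25950 and -0.047 to 0.093 for PBAC3 (AT5G14710). Precision is limited by the number of arrays, and without detection calls signal over background is unknown here.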

Other observations

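Genes next to the members on the chromosome, in the order of the TAIR10.1 annotation, were looked up after the values of the members had been seen. Of the 16 protein-coding genes within 2 places of a member, 10 have a probe set listed for them alone. In limma 0 of them passed an adjusted p under 0.05 (adjusted p from 0.64 to 0.949), against 0.114% of all probe sets called higher and 0% lower. At an unadjusted p under 0.05, 0 of them were higher or lower, against 900 higher and 1042 lower of all 22746. With so few genes these counts say little. The genes on both sides of PTRE1, AT3G53960 and AT3G53980, had log2 differences of -0.06 and 0.11, and their groups overlapped. AT3G18870, beside AT3G18860, gave 30.7, 23.4 and 26.8 in mock and 22.5, 11.0 and 21.6 with estradiol, all estradiol values below all mock values (log2 difference -0.34 ± 0.162 SE, adjusted p = 0.64); 7.74% of all probe sets were lower in this way. AT3G18880, on the same side of AT3G18860, gave 8.99, 10.7 and 11.4 in mock and 13.8, 14.9 and 11.8 with estradiol, all estradiol values above all mock values, as in 5.79% of all probe sets (log2 difference 0.16, adjusted p = 0.692). AT2G26790, beside ECM29, also had all estradiol values below all mock values but is dim, with group means of 2.76 in mock and 0.79 with estradiol (log2 difference -0.15, adjusted p = 0.758). Near AT3G04780 the gene measured was AT3G04760, which had a log2 difference of -0.10.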
